A study of Mus musculus with 12 samples.

Results

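The genes of fatty acid oxidation and the targets of the nuclear receptor PPARalpha were examined in the liver of KK and C57BL/6J mice. The set held 34 genes, taken by their symbol in the platform's annotation of the probe sets. It covered fatty acid uptake, the carnitine shuttle, mitochondrial and peroxisomal oxidation, the enzymes that deal with unsaturated chains, 2 dehydrogenases of fatty aldehydes and ketone bodies, and 5 regulators or secreted factors. Genes of the Cyp4a, vanin and Acot families were left out of the set. Of the 34 genes, 33 had a probe set, each exactly 1, among 18784 named genes in all. Acsl1 was not analysed here.

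The 12 arrays each measured whole liver RNA of 1 mouse, in 4 groups of 3: KK males, KK females, C57BL/6J males and C57BL/6J females. KK is an inbred strain prone to obesity and diabetes, named in the labels as KK/HIJ and in another field of the same samples as KK/J. C57BL/6J is a common laboratory strain. All mice were 8 weeks old, ate chow, lived alone for 3 days and were without food for 4 hours, and their livers were perfused with PBS. No agent was given and no engineered allele is named. The labels give no litter, batch or scan date, and p-values measure the spread between mice of a group.

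Fatty acids enter the mitochondrion as carnitine esters, and each turn of beta-oxidation then removes an acetyl unit through a dehydrogenase, a hydratase, another dehydrogenase and a thiolase. Peroxisomes shorten very long, branched and dicarboxylic chains by a parallel route. Unsaturated chains need isomerases and a reductase before they can pass. PPARalpha, together with RXR, binds DNA as a heterodimer and is activated by fatty acids. In the fasting liver it is known to raise the transcription of many of these enzymes and of the hormone gene Fgf21.

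Values are log2 expression as deposited, normalized across arrays with RMA per the submitters' processing notes, on which a difference of 1 is a doubling. The number of arrays limits the precision. A gene was called at a limma adjusted p under 0.05, with the adjustment over all 21212 probe sets. Differences are KK minus C57BL/6J or male minus female, with the standard error (SE) of the fit, and a mean ± SD is over n = 3 mice. Fewer cells of a type and less RNA per cell cannot be told apart in whole liver. Whether the probes read both strains alike was not tested, so a strain difference is one of array signal.

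The promoters of the 5 genes that were called lower in KK livers of both sexes are shown first, together with that of Fabp1. Of the 28 genes of the set with a promoter window, Fabp1 is the one whose window held a relaxed form of the PPAR response element. The letters are the 150 bases before the RefSeq start in mouse build GRCm38.p6, written 5′ to 3′ along the gene. Capitals mark the relaxed repeat (NGGNCA, then any base, then AGGNCA), the receptor half-site AGGTCA and the GC box GGGCGG, each on either strand, and adjoining or overlapping matches run together. The positions are chr11:61267187-61267336 on the minus strand for Aldh3a2, chr16:21787835-21787984 on the minus strand for Ehhadh, chr17:26090165-26090314 on the minus strand for Decr2, chr17:24426533-24426682 on the plus strand for Eci1, chr9:108661986-108662135 on the plus strand for Slc25a20 and chr6:71199729-71199878 on the plus strand for Fabp1.
Aldh3a2: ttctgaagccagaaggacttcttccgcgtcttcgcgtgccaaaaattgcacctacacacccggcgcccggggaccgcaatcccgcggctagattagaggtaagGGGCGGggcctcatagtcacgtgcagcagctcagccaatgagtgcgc
Ehhadh: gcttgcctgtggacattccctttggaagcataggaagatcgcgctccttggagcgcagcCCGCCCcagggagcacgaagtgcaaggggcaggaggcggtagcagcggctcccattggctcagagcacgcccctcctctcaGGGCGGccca
Decr2: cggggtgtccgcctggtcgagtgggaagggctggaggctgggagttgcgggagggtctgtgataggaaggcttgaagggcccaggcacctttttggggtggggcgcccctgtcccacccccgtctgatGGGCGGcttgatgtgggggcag
Eci1: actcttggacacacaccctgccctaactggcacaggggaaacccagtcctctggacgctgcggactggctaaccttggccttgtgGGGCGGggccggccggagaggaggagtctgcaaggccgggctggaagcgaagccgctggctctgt
Slc25a20: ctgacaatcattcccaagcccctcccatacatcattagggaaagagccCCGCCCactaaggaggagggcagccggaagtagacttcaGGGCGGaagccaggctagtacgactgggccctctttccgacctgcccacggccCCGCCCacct
Fabp1: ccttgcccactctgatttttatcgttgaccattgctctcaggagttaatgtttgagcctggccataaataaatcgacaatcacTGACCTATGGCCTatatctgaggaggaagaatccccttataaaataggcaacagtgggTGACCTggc

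The GC content of the first 5 sequences lay between 60.7% (Aldh3a2) and 68.0% (Decr2), against 44.7% for Fabp1. Each of the 5 held at least 1 GC box and none of the receptor motifs. In the full windows, 250 bases before to 50 after the start, 28 of the 33 genes could be matched. The strict element (AGGTCA, then any base, then AGGTCA) was in 0 of these 28 genes and in 0.0481% of all 27025 genes, and the relaxed repeat in 1 of 28, against 0.929%. The half-site AGGTCA, which the strict element contains, was in 6 of 28 genes, against 18.1% of all: Slc27a2, Acadm, Fabp1, Creb3l3, Acadvl and Cpt1a. The cAMP response element TGACGTCA was in 0 of 28, against 2.03%, and the GC box GGGCGG in 21 of 28, against 38.2%. The half-site and the GC box were added after the data were seen. A match describes letters only, and a window without one says nothing of the receptor.

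The labels and the arrays were checked first. Y-linked genes read 3.79 to 4.66 in females, which served as the level of absent transcripts, and the lowest reading of any gene of the set was 4.96, for Pdk4 in a C57BL/6J male. Across probe sets, which are not independent, the correlation was 0.992 to 0.996 within groups and 0.975 to 0.993 between them. The interquartile range of an array ran from 2.64 (KK male 2) to 2.97 (KK female 1), so the arrays differed in spread. Of 8 hepatocyte markers, Apob was called higher (0.22) and Apoa1 lower (-0.34) in KK livers. Their summed linear signal ran from 84214 to 86201 in KK males, 84354 to 87728 in KK females, 85622 to 87609 in C57BL/6J males and 82861 to 83057 in C57BL/6J females. Markers of other cells differed between strains as well. Of 8 Kupffer cell markers 3 were called lower in KK livers, of 8 sinusoidal endothelial markers 3 were lower, of 8 stellate cell markers 2 were lower and 1 higher, and of 3 erythroid markers 2 were higher, with Alas2 at 1.19. Adipocyte, skeletal muscle, exocrine pancreas and cholangiocyte markers gave 0 calls between strains by limma (2 at an unadjusted p under 0.05). The part of these markers in the results below was not tested.

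Over both sexes, 10 of the 33 genes fell in KK livers, 2 rose and 21 were not called. The genes that fell were the fatty aldehyde dehydrogenase Aldh3a2, the peroxisomal bifunctional enzyme Ehhadh, 3 of 5 enzymes of unsaturated chains (Eci1, Decr2 and Ech1), 3 of 5 genes of the carnitine shuttle (Slc25a20, Cpt1a and Crot) and 2 of 5 of the mitochondrial dehydrogenase group (Acadl and Etfdh). Those that rose, Acaa1b and Pex11a, both belong to the peroxisome. None of 4 genes of the later mitochondrial steps and none of 5 regulators was called. Lower calls thus made up 30.3% of the set, against 6.31% of all probe sets, and higher calls 6.06%, against 5.42%; calls either way were 36.4%, against 11.7%. At an unadjusted p under 0.05 there were 16. For 6 genes all KK values lay below all C57BL/6J values (18.2%, against 3.32% of all probe sets), and for 0 all lay above (against 2.66%). The set was strongly expressed. Apart from Hadhb, Ppargc1a, Pdk4 and Fgf21, each gene's mean level was at or above percentile 85.2 of all probe sets, that of Crat. All probe sets include weakly expressed ones, and shares among probe sets of like level were not computed. The median difference of the 33 genes was -0.09, against 0.01 for all probe sets, and 11 of the 33 were above 0 (15 after quantile and 14 after cyclic loess normalization). The count of 2 that rose was 0 without KK male 3, KK female 1, KK female 2, C57BL/6J male 1 or C57BL/6J female 1, and 1 without KK male 1, KK male 2, C57BL/6J male 2 or C57BL/6J female 2.

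**Figure D1:**
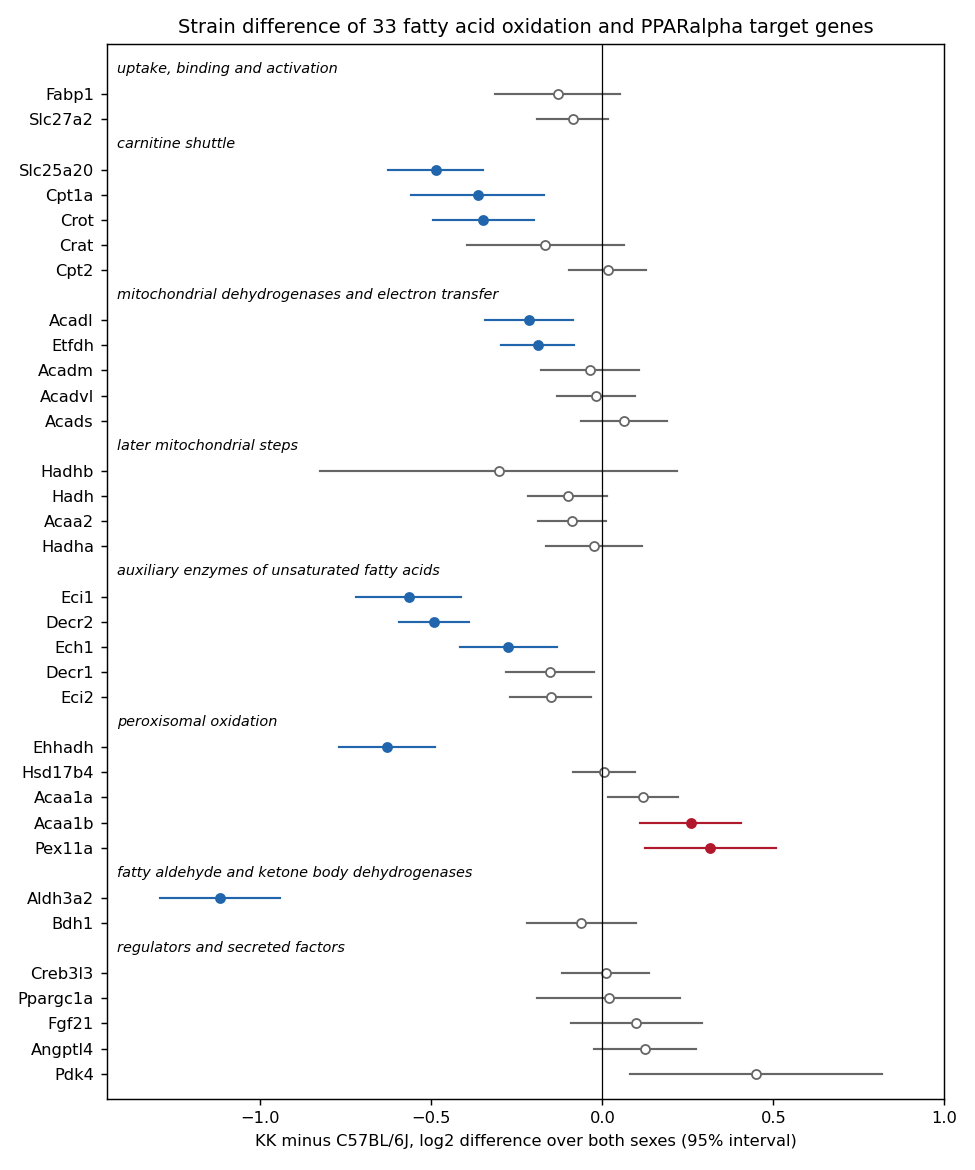
Difference of KK minus C57BL/6J over both sexes on the log2 scale (x axis) for each of the 33 genes, grouped by role, with points for the estimate and bars for the 95% interval. Filled blue points were called lower (10 genes), filled red points higher (2 genes) and open points were not called (21 genes). Aldh3a2 lies farthest to the left at -1.12, and Hadhb has the widest interval, -0.82 to 0.22.

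Aldh3a2, on chromosome 11, encodes the dehydrogenase that turns long-chain fatty aldehydes into fatty acids. It read 10.20, 10.27 and 10.43 in KK males, 10.27, 9.85 and 9.86 in KK females, 11.20, 11.15 and 11.18 in C57BL/6J males and 11.20, 11.50 and 11.36 in C57BL/6J females. All 6 KK values lay below all 6 C57BL/6J values, and the mean KK level was 46.1% of the C57BL/6J level, a difference of -1.12 (SE 0.08, adjusted p = 2.28e-06). The other gene of its group, Bdh1, the mitochondrial dehydrogenase that interconverts the ketone bodies, averaged 10.58 ± 0.01 in KK males, 10.51 ± 0.05 in KK females, 10.46 ± 0.21 in C57BL/6J males and 10.75 ± 0.15 in C57BL/6J females. Its difference over both sexes was -0.06, with a 95% interval of -0.22 to 0.10, and it was not called.

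In the peroxisome, Ehhadh carries the hydratase and the dehydrogenase of the classical pathway, and its gene lies on chromosome 16. Its values were 10.45, 10.26 and 10.38 in KK males, 10.79, 10.79 and 10.76 in KK females, 11.19, 11.22 and 11.02 in C57BL/6J males and 11.09, 11.26 and 11.44 in C57BL/6J females. The groups of the strains did not overlap, and KK males were lowest of the 4 groups. Over both sexes the KK level was 64.6% of the C57BL/6J level, at -0.63 (SE 0.06, adjusted p = 4.55e-05). Hsd17b4, which carries the same activities for branched chains and bile acid intermediates, differed by 0.00 (SE 0.04) between strains.

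The peroxisomal thiolase genes Acaa1a and Acaa1b lie together on chromosome 9 and are close paralogs, so a reading is uncertain as to the gene. Acaa1b read 11.35, 11.29 and 11.39 in KK males, 11.14, 11.13 and 10.83 in KK females, 10.80, 11.08 and 11.01 in C57BL/6J males and 10.87, 10.84 and 10.98 in C57BL/6J females. KK males lay above every other mouse, while the other 3 groups overlapped, and the difference over both sexes was 0.26 (SE 0.07, adjusted p = 0.0267). This call was lost, with adjusted p-values of 0.0551 to 0.0643 when an array other than KK male 2, KK female 3, C57BL/6J male 2, C57BL/6J male 3 and C57BL/6J female 3 was left out. Acaa1a averaged 9.29 ± 0.03 in KK males, 9.04 ± 0.09 in KK females, 9.06 ± 0.07 in C57BL/6J males and 9.03 ± 0.06 in C57BL/6J females and was not called over both sexes (0.12, adjusted p = 0.148). In males its strain difference was 0.23 (adjusted p = 0.0738), and it was called higher there with array weights (adjusted p = 0.0252).

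Pex11a, on chromosome 7, encodes a protein of peroxisome division. It read 9.14, 9.39 and 9.34 in KK males, 9.50, 9.34 and 9.23 in KK females, 9.07, 9.08 and 9.39 in C57BL/6J males and 8.59, 8.95 and 8.96 in C57BL/6J females. The strains overlapped through C57BL/6J males, and C57BL/6J females were lowest. The difference was 0.32 (SE 0.09, adjusted p = 0.0363), with adjusted p-values of 0.0629 to 0.0891 when an array other than KK male 1, KK female 3, C57BL/6J male 3, C57BL/6J female 2 and C57BL/6J female 3 was left out.

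Among the enzymes of unsaturated chains, all 5 genes had a lower mean in KK livers, and 3 were called. Eci1, the mitochondrial isomerase that shifts double bonds (chromosome 17), read 9.59, 9.78 and 9.76 in KK males, 9.62, 9.69 and 9.67 in KK females, 10.13, 10.20 and 10.32 in C57BL/6J males and 10.04, 10.37 and 10.45 in C57BL/6J females. The strains did not overlap, and the KK level was 67.5% of the C57BL/6J level (-0.57, SE 0.07, adjusted p = 0.000207). Decr2, the peroxisomal dienoyl-CoA reductase, also lies on chromosome 17 and read 10.85, 10.80 and 10.90 in KK males, 10.91, 10.96 and 10.85 in KK females, 11.27, 11.24 and 11.38 in C57BL/6J males and 11.37, 11.52 and 11.45 in C57BL/6J females. Its values were tight within each group, with a pooled SD of 0.06, the strains did not overlap, and the difference was -0.49 (SE 0.05, adjusted p = 2.44e-05).

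Ech1, the dienoyl-CoA isomerase gene of chromosome 7, read 10.74, 10.75 and 10.70 in KK males, 10.70, 10.88 and 10.70 in KK females, 10.89, 10.96 and 10.97 in C57BL/6J males and 10.87, 11.25 and 11.17 in C57BL/6J females. KK and C57BL/6J values overlapped only through the highest KK female, at 10.88, and the lowest C57BL/6J female, at 10.87. The difference over both sexes was -0.28 (SE 0.07, adjusted p = 0.0158), and the adjusted p was 0.0563 after cyclic loess normalization. Decr1, the mitochondrial dienoyl-CoA reductase, averaged 10.24 ± 0.06 in KK males, 10.23 ± 0.03 in KK females, 10.33 ± 0.09 in C57BL/6J males and 10.44 ± 0.16 in C57BL/6J females, at -0.15 (SE 0.06, adjusted p = 0.129). Eci2, an isomerase of both organelles, averaged 9.96 ± 0.09 in KK males, 10.09 ± 0.09 in KK females, 10.18 ± 0.05 in C57BL/6J males and 10.18 ± 0.11 in C57BL/6J females, at -0.15 (SE 0.05, adjusted p = 0.104). Neither was called, but without C57BL/6J female 1 Decr1 was called lower, with an adjusted p of 0.028.

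In the carnitine shuttle, the inner-membrane exchanger gene Slc25a20 (chromosome 9) read 10.06, 10.10 and 10.34 in KK males, 10.18, 10.07 and 10.20 in KK females, 10.62, 10.62 and 10.65 in C57BL/6J males and 10.50, 10.78 and 10.72 in C57BL/6J females. The strains did not overlap, and the KK level was 71.3% of the C57BL/6J level (-0.49, SE 0.06, adjusted p = 0.000294). Cpt1a, the outer-membrane transferase that commits fatty acids to oxidation (chromosome 19), read 10.25, 10.49 and 10.44 in KK males, 10.59, 10.47 and 10.24 in KK females, 10.59, 10.59 and 11.04 in C57BL/6J males and 10.78, 10.80 and 10.87 in C57BL/6J females. The highest KK female reached the 2 lowest C57BL/6J males, and the difference was -0.36 (SE 0.09, adjusted p = 0.0188), with an adjusted p of 0.0531 without KK male 1. Crot, the peroxisomal carnitine octanoyltransferase (chromosome 5), read 11.77, 11.86 and 11.98 in KK males, 12.20, 12.14 and 11.93 in KK females, 12.08, 12.33 and 12.33 in C57BL/6J males and 12.34, 12.40 and 12.49 in C57BL/6J females. Its strain ranges overlapped between KK females and C57BL/6J males, and the difference was -0.35 (SE 0.07, adjusted p = 0.00485).

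The shuttle's other transferases were not called. Cpt2, which rebuilds acyl-CoA inside the mitochondrion, averaged 9.61 ± 0.07 in KK males, 9.58 ± 0.02 in KK females, 9.53 ± 0.09 in C57BL/6J males and 9.63 ± 0.11 in C57BL/6J females, and its interval over both sexes was -0.10 to 0.13. Crat, the acetyltransferase, averaged 8.26 ± 0.09 in KK males, 8.17 ± 0.18 in KK females, 8.19 ± 0.07 in C57BL/6J males and 8.57 ± 0.36 in C57BL/6J females, with an interval of -0.40 to 0.06. The spread of Crat among C57BL/6J females was the widest of its 4 groups.

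Among the acyl-CoA dehydrogenases, the long-chain gene Acadl (chromosome 1) read 9.81, 9.67 and 9.94 in KK males, 10.08, 9.97 and 9.96 in KK females, 9.91, 10.00 and 9.91 in C57BL/6J males and 10.17, 10.33 and 10.41 in C57BL/6J females. Within each sex KK mice were on average lower, and the ranges of the strains overlapped across the sexes, as KK females reached C57BL/6J males, and within males too, as the highest KK male read 9.94 and the lowest C57BL/6J male 9.91. Females of each strain read above its males. The strain difference was -0.22 (SE 0.06, adjusted p = 0.0326), with adjusted p-values of 0.0541 to 0.0803 when an array other than KK male 3, KK female 1 and C57BL/6J female 1 was left out, and the adjusted p was 0.0635 after quantile normalization. Acadvl, Acadm and Acads, for very long, medium and short chains, differed by -0.02 (SE 0.05), -0.04 (SE 0.07) and 0.06 (SE 0.06) and were not called.

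Etfdh, on chromosome 3, passes electrons from all of these dehydrogenases to ubiquinone. It read 11.41, 11.52 and 11.51 in KK males, 11.52, 11.50 and 11.55 in KK females, 11.55, 11.71 and 11.68 in C57BL/6J males and 11.64, 11.81 and 11.76 in C57BL/6J females. Every KK value lay below every C57BL/6J value, although the nearest values of both strains read 11.55, and the difference was -0.19 (SE 0.05, adjusted p = 0.0243). The call was lost, with adjusted p-values of 0.0527 to 0.0661 without KK male 1, KK female 2, C57BL/6J male 2, C57BL/6J male 3, C57BL/6J female 2 or C57BL/6J female 3, and at 0.0638 after quantile and 0.0814 after cyclic loess normalization.

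**Figure D2:**
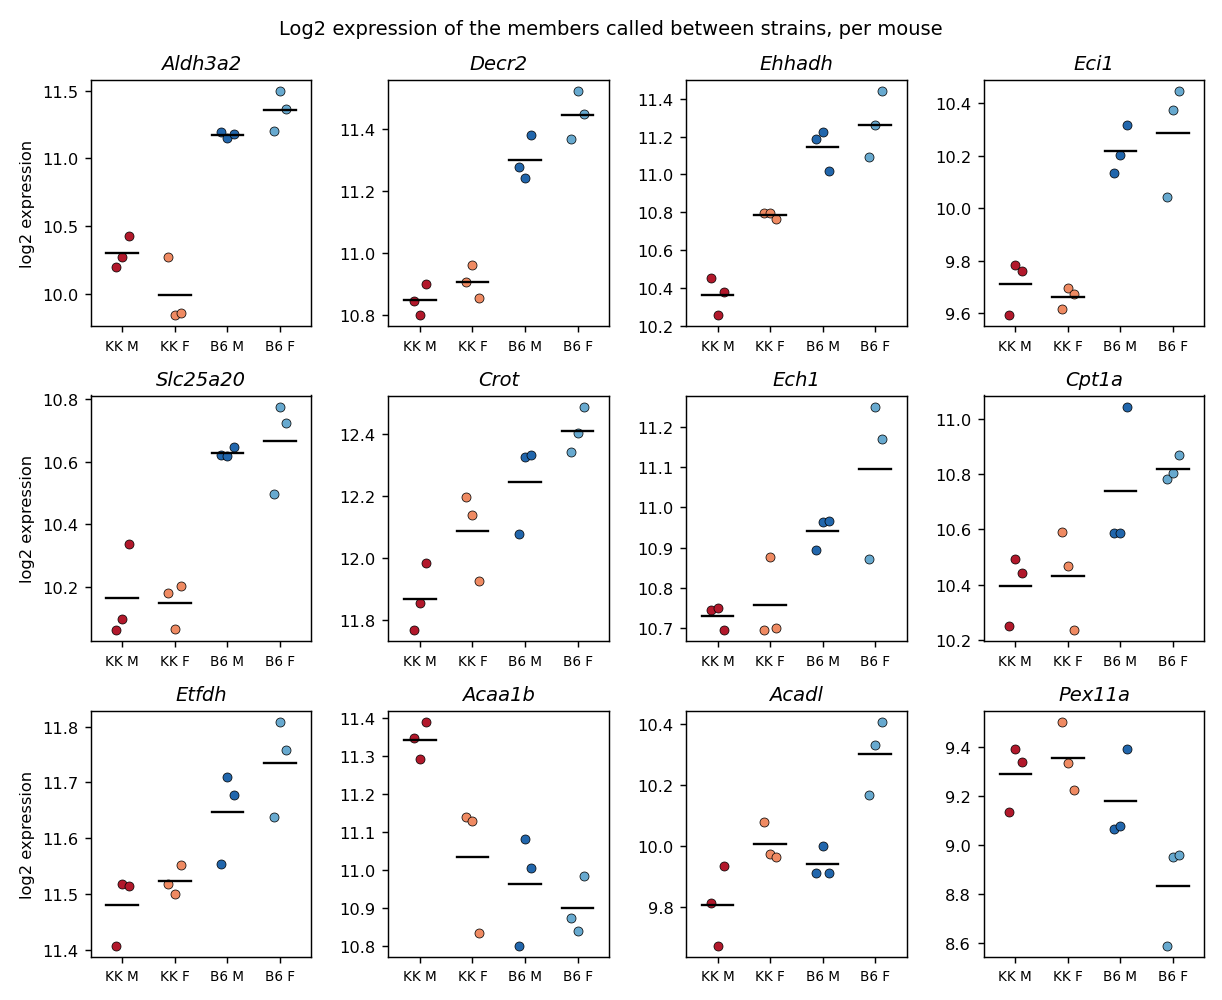
Log2 expression (y axis, which differs between panels) of the 12 genes called between strains over both sexes, with a point for each mouse and a bar for the group mean. B6 stands for C57BL/6J, M for males and F for females. In Aldh3a2, Decr2, Ehhadh, Eci1, Slc25a20 and Etfdh the KK points lie below the C57BL/6J points, and in Acaa1b KK males stand above the rest.

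The 4 genes of the later mitochondrial steps were not called in any comparison by limma with the arrays weighted equally. At an unadjusted p under 0.05 there were 0 for the strains over both sexes and in males. There was 1 for the strains in females, for the sexes of KK, for the sexes of C57BL/6J and in the interaction. Hadha and Hadhb encode the subunits of the trifunctional protein, and their RefSeq starts face away from each other on chromosome 5 with 272 bases between them. Hadha averaged 10.78 ± 0.10 in KK males, 10.99 ± 0.09 in KK females, 10.89 ± 0.15 in C57BL/6J males and 10.93 ± 0.10 in C57BL/6J females, with a strain difference of -0.03 (SE 0.06). Hadhb read 5.36, 6.47 and 6.98 in KK males, 6.78, 6.47 and 6.86 in KK females, 6.50, 7.30 and 6.72 in C57BL/6J males and 6.76, 6.41 and 7.05 in C57BL/6J females. One KK male stood at 5.36, well below the rest, and the pooled within-group SD of Hadhb, 0.50, was above that of 99.7% of probe sets. Its strain difference was -0.30 (SE 0.24), with a 95% interval of -0.82 to 0.22, and -0.08 without that mouse, KK male 1. In males it was -0.57 (SE 0.34), -0.11 without KK male 1, and with array weights it was called lower at -1.20 (adjusted p = 0.0285). Hadh, the dehydrogenase of shorter chains, differed by -0.10 (SE 0.05), and Acaa2, a mitochondrial thiolase, by -0.09 (SE 0.05).

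Uptake and binding were measured by Slc27a2, a transporter and very-long-chain synthetase, and Fabp1, the fatty acid binding protein of hepatocytes. Slc27a2 averaged 12.85 ± 0.03 in KK males, 12.73 ± 0.11 in KK females, 12.92 ± 0.05 in C57BL/6J males and 12.84 ± 0.05 in C57BL/6J females, at -0.09 (SE 0.05, adjusted p = 0.332) between strains. Fabp1 averaged 12.81 ± 0.04 in KK males, 12.59 ± 0.05 in KK females, 12.83 ± 0.21 in C57BL/6J males and 12.84 ± 0.23 in C57BL/6J females, at -0.13 (SE 0.08, adjusted p = 0.429). KK females were the lowest group in both, and neither was called (0 of 2 by limma, 0 at an unadjusted p under 0.05).

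The regulators and secreted factors all had a higher mean in KK livers, and 0 of 5 were called between strains over both sexes by limma (1 at an unadjusted p under 0.05). That gene was Pdk4, the kinase that shuts off pyruvate dehydrogenase in fasting, which read 5.68, 5.35 and 5.99 in KK males, 6.37, 6.46 and 5.77 in KK females, 5.12, 5.25 and 4.96 in C57BL/6J males and 5.32, 6.18 and 6.09 in C57BL/6J females. All 3 KK males lay above all 3 C57BL/6J males, while the females overlapped. Its difference of 0.45 (SE 0.17, adjusted p = 0.121) was the largest positive one of the set, and its within-group SD of 0.35 was above that of 98.7% of probe sets. Without KK female 3, Pdk4 was called higher over both sexes, at 0.56 (adjusted p = 0.0484). Fgf21, the fasting hormone gene, averaged 5.38 ± 0.17 in KK males, 5.31 ± 0.11 in KK females, 5.22 ± 0.10 in C57BL/6J males and 5.27 ± 0.25 in C57BL/6J females, not far above the level of absent transcripts, and differed by 0.10 (SE 0.09). Creb3l3, which encodes the transcription factor CREBH of hepatocytes, differed by 0.01 (SE 0.06), the coactivator gene Ppargc1a by 0.02 (SE 0.10) and Angptl4, which encodes an inhibitor of lipoprotein lipase, by 0.12 (SE 0.07). The receptor gene Ppara itself, which is no member of the set, averaged 10.05 ± 0.04 in KK males, 10.14 ± 0.09 in KK females, 10.05 ± 0.21 in C57BL/6J males and 9.98 ± 0.16 in C57BL/6J females, at 0.08 (SE 0.08, adjusted p = 0.624).

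Within each sex, 3 KK mice were set against 3 C57BL/6J mice. In males 6 genes fell in KK and 1 rose, which is 21.2% called, against 5.15% of all probe sets (18.2% lower, against 3.06%, and 3.03% higher, against 2.08%), and 13 had an unadjusted p under 0.05. In females 6 fell and 2 rose, 24.2% called against 6.50% (18.2% lower, against 3.31%, and 6.06% higher, against 3.18%), with 16 at an unadjusted p under 0.05. Values without overlap were found for 12 genes all below and 4 all above in males (Acads, Acaa1a, Acaa1b and Pdk4; 36.4% and 12.1%, against 10.5% and 11.2% of all probe sets), and for 12 below and 2 above in females (36.4% and 6.06%, against 10.6% and 9.95%). The median difference was -0.09 in males and -0.11 in females. The count that fell in males was 3 without KK male 1, 4 without C57BL/6J male 3, and the 1 that rose was 0 without KK male 1, KK male 2, KK male 3, C57BL/6J male 1, C57BL/6J male 3, C57BL/6J female 1 or C57BL/6J female 2. The 2 that rose in females were 0 without KK female 2 or C57BL/6J female 1 and 1 without KK female 1, KK female 3 or C57BL/6J female 2.

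The 5 genes Aldh3a2, Ehhadh, Decr2, Eci1 and Slc25a20 were called lower in both sexes, which is 5 of the 6 that fell in males and 5 of the 6 that fell in females. Aldh3a2 differed by -0.88 (SE 0.11, adjusted p = 0.000701) in males and by -1.36 (SE 0.11, adjusted p = 2e-05) in females. Ehhadh differed by -0.78 (SE 0.09, adjusted p = 0.000308) in males and by -0.48 (SE 0.09, adjusted p = 0.00769) in females. For Aldh3a2 the female difference was the larger by estimate, and for Ehhadh the male one. Decr2 differed by -0.45 (adjusted p = 0.00177) in males and -0.54 (adjusted p = 0.000381) in females. Eci1 differed by -0.51 (adjusted p = 0.0112) in males and -0.63 (adjusted p = 0.00241) in females, and its male call was lost, with adjusted p-values of 0.0532 to 0.0587 without KK male 1 or C57BL/6J male 3. Slc25a20 differed by -0.46 (adjusted p = 0.0103) in males and -0.51 (adjusted p = 0.00446) in females, and its male call was lost, with an adjusted p of 0.0545 without KK male 1.

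Other genes were called in 1 sex. In males Crot fell (-0.38, SE 0.10, adjusted p = 0.0425), and in females it differed by -0.32 (SE 0.10, adjusted p = 0.073). The male call was lost, with adjusted p-values of 0.0508 to 0.167 when an array other than KK male 3, KK female 1, KK female 3 and C57BL/6J male 1 was left out, 0.0703 after quantile normalization, 0.0851 after cyclic loess normalization and 0.0796 with only the male arrays. In females Crot was called under 4 alternatives, with adjusted p-values of 0.0299 to 0.0493. Acaa1b rose in males (0.38, SE 0.10, adjusted p = 0.0393) and differed by 0.14 (adjusted p = 0.585) in females, with the male call lost at adjusted p-values of 0.0506 to 0.14 when an array other than KK female 1, KK female 2, KK female 3, C57BL/6J male 2 and C57BL/6J female 3 was left out and 0.0552 with only the male arrays. Ech1 differed by -0.21 (adjusted p = 0.268) in males, and in females it fell by 0.34 with an adjusted p of 0.04997, at the threshold, and with adjusted p-values of 0.0613 to 0.187 when an array other than KK female 2 and C57BL/6J female 1 was left out. Its adjusted p was also between 0.0823 and 0.165 after quantile or cyclic loess normalization, with array weights and with only the female arrays. Pex11a differed by 0.11 (adjusted p = 0.725) in males and rose in females (0.52, SE 0.12, adjusted p = 0.0273), with adjusted p-values of 0.0644 to 0.111 without KK female 1, KK female 2 or C57BL/6J female 1 and 0.0566 with only the female arrays. Under at least 1 alternative, Cpt1a, Etfdh, Hadhb and Eci2 were also called lower and Acaa1a higher in males, and Crot, Acadl, Cpt1a, Crat and Decr1 lower in females. A call in 1 sex is therefore no sign that the sexes differed, which the interaction tests.

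Angptl4, on chromosome 17, was the remaining gene called in 1 sex. It read 9.77, 9.40 and 9.52 in KK males, 9.94, 10.17 and 10.00 in KK females, 9.76, 9.68 and 9.75 in C57BL/6J males and 9.67, 9.51 and 9.69 in C57BL/6J females. KK females lay above every other mouse of all groups, and KK males were the most spread. The strain difference was -0.17 (SE 0.10, adjusted p = 0.428) in males and 0.42 (SE 0.10, adjusted p = 0.0237) in females, where the call was lost with adjusted p-values of 0.0511 to 0.0966 without KK female 2, KK female 3, C57BL/6J female 1 or C57BL/6J female 2. By sign, 17 of the 33 genes were lower in KK of both sexes, 5 were higher in both and 11 went opposite ways, among them Angptl4, Ppargc1a, Crat and Bdh1. After quantile normalization 15 were lower in both and 8 higher in both, and after cyclic loess normalization 15 and 6.

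**Figure D3:**
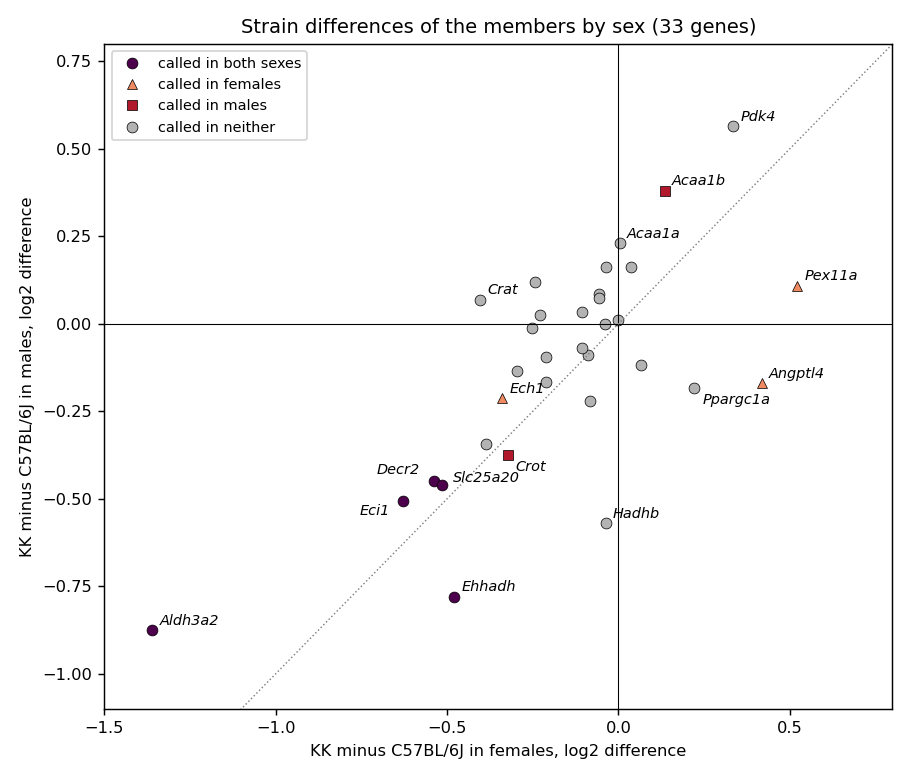
Strain difference (KK minus C57BL/6J, log2) in females on the x axis and in males on the y axis, with 1 point for each of the 33 genes and a dotted line where both are equal. Filled circles in the lower left are the 5 genes called in both sexes, squares were called in males (2 genes), triangles in females (3 genes) and grey circles in neither. Angptl4 lies at -0.17 in males and 0.42 in females.

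The difference between the strain differences, male minus female, was tested as an interaction, and limma called 0 of the 33 genes (8 at an unadjusted p under 0.05), against 0.141% of all probe sets (0.0754% lower and 0.066% higher). The smallest p belonged to Angptl4, at -0.59 (SE 0.14, adjusted p = 0.254). Aldh3a2 followed at 0.48 (SE 0.16, adjusted p = 0.626). Bdh1, Crat, Hadh, Acaa1a, Pex11a and Ehhadh were the other genes at an unadjusted p under 0.05, with differences of 0.36, 0.47, 0.25, 0.23, -0.41 and -0.30. The 95% intervals of the 33 genes reached from -1.58 to 0.97.

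Between the sexes of KK, 3 genes were lower in males, 0 were higher and 30 were not called; 12 had an unadjusted p under 0.05. This is 9.09% lower, against 1.47% of all probe sets, and 0 higher, against 0.698%, with 2.17% of all probe sets called either way. Values without overlap were found for 5 genes all below in males (15.2%, against 8.41%) and 7 all above (21.2%, against 10.2%). The genes called lower were Ppargc1a, Angptl4 and Ehhadh, and Acadl and Hadha also lay all below. The 7 all above were Fabp1, Acaa2, Hsd17b4, Acaa1a, Acaa1b, Bdh1 and Creb3l3, with differences of 0.06 to 0.31. The count was 0 without KK male 2, KK female 1 or KK female 2, and 1 without KK male 1 or KK male 3. With only the KK arrays in the fit it was 0, with adjusted p-values of 0.0583 to 0.124. Acaa1a was called higher in KK males with array weights (adjusted p = 0.015), as was Acaa1b (0.0233), and Acaa1a with the replicate number as a block (0.0409).

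Ppargc1a, on chromosome 5, encodes PGC-1alpha, a coactivator of PPARalpha and of gluconeogenic genes, and read 6.38, 6.16 and 6.35 in KK males, 7.14, 7.19 and 6.66 in KK females, 6.69, 6.28 and 6.48 in C57BL/6J males and 6.77, 6.76 and 6.80 in C57BL/6J females. KK males lay below all KK females, and C57BL/6J males below all C57BL/6J females. The sex difference was -0.70 (SE 0.14, adjusted p = 0.0213) in KK, with adjusted p-values of 0.0581 to 0.111 without KK male 1, KK male 2, KK female 1 or KK female 2, and -0.29 (SE 0.14, adjusted p = 0.613) in C57BL/6J. Angptl4 was lower in KK males, at -0.48 (SE 0.10, adjusted p = 0.0275), with adjusted p-values of 0.0577 to 0.115 without KK male 2, KK male 3, KK female 1 or KK female 2, and in C57BL/6J the difference was 0.11 (SE 0.10). The KK females enter both this difference and the strain difference in females. Ehhadh was lower in KK males, at -0.42 (SE 0.09, adjusted p = 0.0359), with adjusted p-values of 0.0511 to 0.147 when an array other than C57BL/6J male 2, C57BL/6J male 3, C57BL/6J female 1 and C57BL/6J female 3 was left out, and with 0.0708 after quantile normalization and 0.0668 with the interquartile range of the arrays as a covariate.

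Kupffer cell markers moved with the same comparison. In KK males 7 of 8 were called lower than in KK females, and their summed linear signal ran from 1665 to 2318 in KK males, 3527 to 6138 in KK females, 2500 to 3746 in C57BL/6J males and 3628 to 4112 in C57BL/6J females. Of 8 sinusoidal endothelial markers 2 were lower in KK males, with sums of 3538 to 3877 in KK males, 4041 to 5012 in KK females, 3703 to 4004 in C57BL/6J males and 4514 to 4916 in C57BL/6J females. The Kupffer marker Clec4f read 8.15 to 8.59 in KK males and 9.06 to 9.65 in KK females, and all 8 lay above the level of absent transcripts on every array. Their part in the sex difference of Ppargc1a, Angptl4 and Ehhadh was not tested. Alas2, 1 of 3 erythroid markers, and Apoa1, 1 of 8 hepatocyte markers, were called higher in KK males, at 0.74 and 0.32. By sign, 2 erythroid markers were higher in KK males and 1 lower, and 3 hepatocyte markers were higher and 5 lower. The erythroid marker Slc4a1 read 6.25, 6.60 and 6.36 in KK males and 6.74, 6.89 and 6.42 in KK females. The erythroid sums, in which Alas2 had the highest signal, were 1675 to 1796 in KK males and 1006 to 1304 in KK females. Of 8 stellate cell markers 0 were called between the KK sexes by limma (3 at an unadjusted p under 0.05). Their sums were 1199 to 1730 in KK males, 2020 to 2504 in KK females, 1440 to 2041 in C57BL/6J males and 1801 to 2638 in C57BL/6J females. Of 6 adipocyte markers 0 were called between the KK sexes by limma (0 at an unadjusted p under 0.05), with sums of 228 to 237 in KK males and 212 to 228 in KK females. The part of these markers was not tested either.

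**Figure D4:**
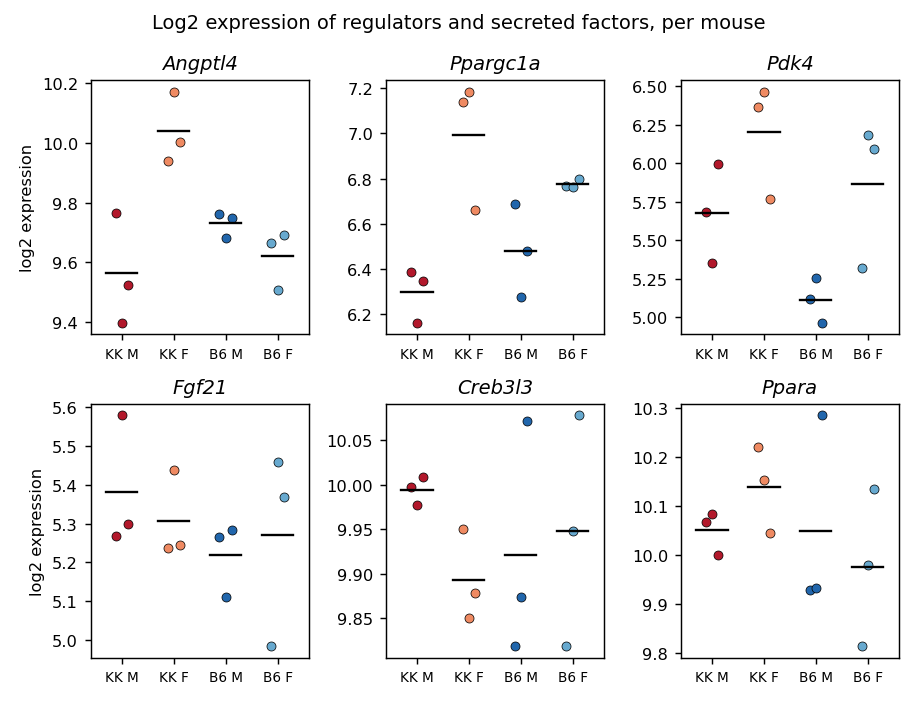
Log2 expression (y axis, which differs between panels) of the 5 regulators and secreted factors and of Ppara, with a point for each mouse and a bar for the group mean. B6 stands for C57BL/6J, M for males and F for females. KK females are highest in Angptl4, Pdk4 spreads widely within groups, and the Ppara groups overlap.

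Between the sexes of C57BL/6J, 0 of the 33 genes were called by limma, against 1.03% of all probe sets (0.674% lower and 0.358% higher), and 8 had an unadjusted p under 0.05. Values without overlap were found for 6 genes all below in males (18.2%, against 6.82%) and 2 all above (6.06%, against 6.27%). The smallest adjusted p was that of Acadl, at -0.36 (SE 0.08, adjusted p = 0.0774) It was 0.0411 after quantile normalization, 0.0302 after cyclic loess normalization and 0.0322 with the interquartile range of the arrays as a covariate. Without C57BL/6J female 1, which read 8.16 for Crat against 8.79 and 8.76 in the other C57BL/6J females, Crat was lower in C57BL/6J males, with an adjusted p of 0.0263, and lower in KK over both sexes, at 0.0313, and in KK females, at 0.00663. In KK Acadl differed by -0.20 (adjusted p = 0.276). Pdk4 had the largest estimate, -0.75 (SE 0.24, adjusted p = 0.28), against -0.53 (adjusted p = 0.315) in KK. Hsd17b4 was all above in males of both strains, by 0.15 (adjusted p = 0.261) in KK and 0.13 (adjusted p = 0.577) in C57BL/6J, and its within-group SD of 0.04 was above that of only 2.61% of probe sets. It averaged 11.60 ± 0.05 in KK males, 11.46 ± 0.04 in KK females, 11.59 ± 0.04 in C57BL/6J males and 11.46 ± 0.04 in C57BL/6J females.

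The spread within groups was ordinary for most of the set. The median within-group SD of the 33 genes was 0.114, against 0.118 for all probe sets. Strain held a median of 24.1% of each gene's sum of squares over the 12 arrays, against 8.91% for all probe sets, sex held 9.07%, against 7.85%, their interaction 6.22%, against 4.32%, and mice within groups 34.4%, against 63.8%. Here too all probe sets include weakly expressed ones, and shares at like level were not computed. Strain held most for Decr2 (91.3%), Aldh3a2 (90.9%), Slc25a20 (87.6%) and Eci1 (86.9%). Sex held most for Hsd17b4 (79.0%) and Ppargc1a (64.5%), and the interaction for Angptl4 (48.9%). Acadvl was at the other end, with 94.2% lying between mice within groups.

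**Figure D5:**
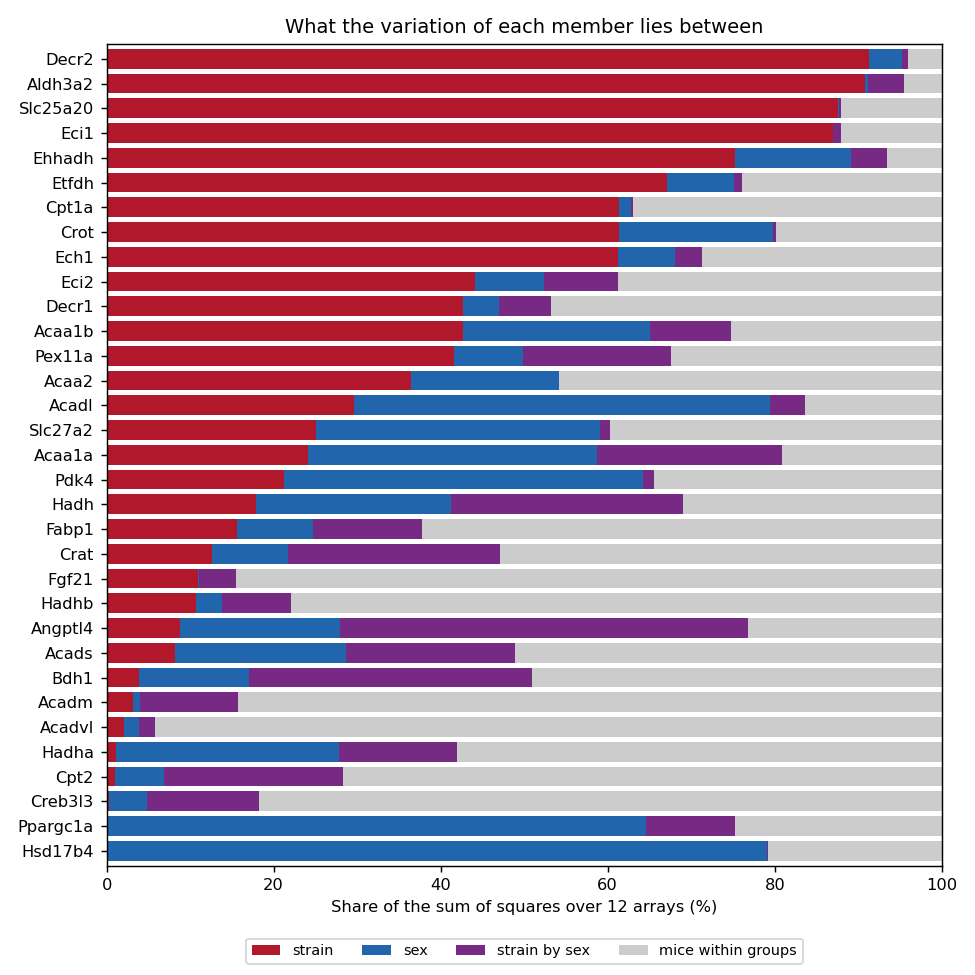
Share of the sum of squares over the 12 arrays (x axis, percent) that lay between strains, between sexes, in their interaction and between mice within groups, with 1 bar for each of the 33 genes, ordered by the strain share. Decr2 and Aldh3a2 at the top are mostly strain, Hsd17b4 and Ppargc1a at the bottom mostly sex.

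The other genes of the pathway were read from lists of 104 genes, of which 95 had a probe set. The rest were not analysed here. Over both sexes 14 of the 95 rose in KK livers and 22 fell, 52 had an unadjusted p under 0.05, and their median difference was -0.03. Of all probe sets 5.42% rose and 6.31% fell. Of 25 other peroxisomal genes 2 rose and 10 fell. Of 27 other mitochondrial genes 3 rose and 8 fell, of 22 receptors and coregulators 5 rose and 1 fell, of 16 further PPARalpha targets 3 rose and 2 fell, and of 5 genes of ketogenesis and ketone transport 1 rose and 1 fell.

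Abcd2, a peroxisomal transporter of very long chains, fell most by estimate, at -2.10 (SE 0.21, adjusted p = 3.92e-05). It read 5.60, 5.50 and 4.98 in KK males, 8.02, 7.37 and 6.75 in KK females, 6.90, 7.69 and 6.96 in C57BL/6J males and 9.44, 9.89 and 9.93 in C57BL/6J females, and males of each strain lay below its females. Pex19, a peroxin that brings in membrane proteins, fell by 0.42 (adjusted p = 0.000646). Nudt7, a peroxisomal CoA diphosphatase, rose at 0.63 (adjusted p = 0.000209). Scp2, the gene of sterol carrier protein and a peroxisomal thiolase, rose at 0.47 (adjusted p = 0.00351). In males neither Nudt7 nor Scp2 was called higher, and the strains overlapped. Nudt7 read 12.04 to 12.25 in KK males and 11.67 to 12.06 in C57BL/6J males, and Scp2 13.08 to 13.26 and 12.84 to 13.12.

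Of the mitochondrial genes, Acad10, of the acyl-CoA dehydrogenase family, had the smallest adjusted p among those that rose (0.83, SE 0.05, adjusted p = 6.02e-07). It read 8.35 to 8.60 in KK and 7.51 to 7.78 in C57BL/6J livers, without overlap. Acad9, a family member that also serves assembly of complex I, rose (0.21, adjusted p = 0.00743), and Acad8, the isobutyryl-CoA dehydrogenase of valine breakdown, fell (-0.41, adjusted p = 0.000406). The medium-chain acyl-CoA synthetase genes moved both ways, with Acsm2 at 0.71 (adjusted p = 0.000964) and Acsm3 at -0.62 (adjusted p = 0.000188). Acsm2 read 6.63 to 7.03 in KK females and 5.32 to 5.94 in the other groups, not far above the level of absent transcripts. In males its strains overlapped, at 5.60 to 5.84 in KK and 5.37 to 5.72 in C57BL/6J. The fatty acid transporter gene Slc27a1 fell (-0.43, adjusted p = 0.000256), as did Retsat, a retinol saturase gene and PPARalpha target (-0.73, adjusted p = 6e-05), while the coactivator gene Ncoa2 rose (0.31, adjusted p = 0.00521).

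Within the sexes the same lists gave fewer calls. In males 5 rose and 8 fell, where 2.08% of all probe sets rose and 3.06% fell, and leaving out C57BL/6J male 3 gave 3 that fell and KK male 1 or KK male 2 gave 5, while the 5 that rose were 3 without KK male 1, KK male 2, C57BL/6J male 1 or C57BL/6J male 2. Lpin1, which encodes a phosphatidate phosphatase that also coactivates PPARalpha, fell in KK males at -1.77 (SE 0.33, adjusted p = 0.00851) and differed by -0.84 (adjusted p = 0.202) in females. Acad10 (0.96), the monocarboxylate transporter gene Slc16a1 (0.42), the lipid droplet gene Cidec (0.43) and Acad9 (0.27) rose in males, and Retsat (-0.99), Abcd2 (-1.83) and Acsm3 (-0.53) fell. Of these, Cidec had adjusted p-values of 0.0536 to 0.0772 without C57BL/6J male 2 or C57BL/6J male 3, Acad9 had adjusted p-values of 0.0752 to 0.0783 without KK male 1, KK male 2, C57BL/6J male 1 or C57BL/6J male 2 and Acsm3 had adjusted p-values of 0.0534 to 0.061 without KK male 1 or C57BL/6J male 3. With only the male arrays, Cidec had an adjusted p of 0.0756 and Acad9 of 0.0669.

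In females 11 of the 95 rose and 15 fell, where 3.18% of all probe sets rose and 3.31% fell. The 11 were 5 without KK female 1 or C57BL/6J female 2 and 7 without KK female 2, C57BL/6J female 1 or C57BL/6J female 3, while leaving out KK female 1 gave 8 that fell, C57BL/6J female 2 gave 7 and C57BL/6J female 3 gave 9. Acad10 (0.69), Nudt7 (1.05), Acsm2 (1.23) and Scp2 (0.76) rose, and Slc27a1 (-0.64), Abcd2 (-2.37), the transporter gene Slc16a7 (-0.92) and Acad8 (-0.53) fell.

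Between KK males and KK females 5 of the 95 were higher in males and 3 lower, where 0.698% of all probe sets were higher and 1.47% lower; the 5 were 2 without KK female 1 and 3 without KK male 1 or KK male 2. Lpl, the lipoprotein lipase gene that Angptl4 protein inhibits, was higher in males at 1.41 (SE 0.17, adjusted p = 0.00133), and read 7.82, 7.82 and 7.90 in KK males and 6.48, 6.17 and 6.68 in KK females. Ephx2, a soluble epoxide hydrolase gene (0.43), Echdc2 (0.44) and the branched-chain oxidase gene Acox2 (0.61) were also higher, and Acsm2 (-1.07), Abcd2 (-2.03) and the fatty acid receptor gene Cd36 (-0.85) were lower. Echdc2 had an adjusted p of 0.0518 without KK female 1, Acox2 had adjusted p-values of 0.0551 to 0.0642 without KK male 1, KK male 2 or KK female 1 and Cd36 had adjusted p-values of 0.054 to 0.118 without KK male 2, KK male 3 or KK female 1. With only the KK arrays these 3 had adjusted p-values of 0.0617, 0.0893 and 0.0658, and Cd36 had 0.0511 with the interquartile range as a covariate.

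Between C57BL/6J males and females 4 were higher in males and 6 lower, where 0.358% of all probe sets were higher and 0.674% lower, and the 4 were 2 without C57BL/6J male 2, C57BL/6J male 3, C57BL/6J female 1 or C57BL/6J female 2, while the 6 were 3 without C57BL/6J female 2 or C57BL/6J female 3. Nudt7 (1.24), Scp2 (1.09), Ephx2 (0.35) and the phytanoyl-CoA hydroxylase gene Phyh (0.30) were higher, and Abcd2 (-2.57), Slc16a7 (-0.96), Slc16a1 (-0.53) and Cd36 (-0.97) were lower. Ephx2 had adjusted p-values of 0.0508 to 0.0655 without C57BL/6J male 2, C57BL/6J male 3, C57BL/6J female 1 or C57BL/6J female 2, Cd36 had adjusted p-values of 0.0598 to 0.066 without C57BL/6J male 2, C57BL/6J male 3, C57BL/6J female 2 or C57BL/6J female 3 and Phyh had adjusted p-values of 0.0511 to 0.125 when an array other than KK male 2, KK male 3, KK female 1, KK female 2 and KK female 3 was left out. With only the C57BL/6J arrays Ephx2 had an adjusted p of 0.0796 and Phyh of 0.121. In the interaction limma called 0 of the 95 (21 at an unadjusted p under 0.05).

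The families left out of the set were counted alongside. Over both sexes 2 of 6 Cyp4a genes rose in KK livers and 3 fell, 2 of 2 vanin genes fell, and of 13 Acot genes 1 rose and 5 fell, where 5.42% of all probe sets rose and 6.31% fell. The Cyp4a count was 1 higher and 4 lower of 6 in males (2.08% and 3.06% of all probe sets) and 3 higher and 3 lower of 6 in females (3.18% and 3.31%). In the interaction 4 of 6 Cyp4a genes were called, against 0.141% of all probe sets.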

How the data were processed

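Liver RNA of 12 mice was measured on expression arrays, 1 array per mouse and 3 mice in each of 4 groups. The deposited values are log2 expression for 21212 probe sets, made by the authors with RMA in the affy package per the submitters' processing notes. Their versions and settings are not given in the sources used here. RMA normalizes between arrays, so a shift shared by most transcripts may not be seen.

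Probe sets were named through the platform annotation (18786 with 1 symbol, 6 with several, 2420 with none). limma 3.58.1 in R 4.3.3 was fitted to the values of all 12 arrays, with 1 mean per strain and sex, and p-values were adjusted by the Benjamini-Hochberg method over all probe sets. All tests were two-sided. Tested on simulated data for the comparison of strains over both sexes, the fit recovered 95.5% of 67 genes changed by 1.5-fold among 21212, with 8 false calls. For the comparisons within 1 sex or strain it recovered from 71.6% (strains in females) to 80.6% (strains in males) of 67. For the interaction it recovered 61.2% of 67, with 17 false calls. The simulated noise was normal and independent between arrays, whereas the real arrays differed in spread. Each gene's observed SD was taken as its true one. Only 67 genes were changed by 1.5-fold, 67 by 2-fold and 66 by 4-fold, whereas 11.7% of probe sets were called between strains over both sexes. Recovery and false calls may therefore differ in the real data.

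The genes and lists, markers included, were chosen with earlier results of these data known. Each gene of the set was named, and values on every array were given for those called in any comparison. Values of Hadhb, Pdk4, Abcd2, Acad10, Acsm2, Cidec, Nudt7, Scp2 and Lpl by mouse or range were given in addition, after they were seen. So were those of Clec4f, Alas2, Slc4a1, Apob and Apoa1, and of Cyp4a10, Cyp4a12a, Cyp4a12b and Cyp4a14. Of the other pathway genes, up to 6 each way with the smallest adjusted p were named over both sexes, and up to 4 each way in each other comparison. Promoters are RefSeq windows of build GRCm38.p6. The alternatives tried were other normalizations, filters, variance models, weights, a replicate block, a covariate, fewer groups and leaving out each array.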

Additional observations from a re-analysis of the deposited data

Results flagged for a closer look

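Among the families left out of the set, the strain difference of the Cyp4a genes differed between the sexes. In the interaction limma called 4 of 6, all with a strain difference that was lower in males than in females, against 0.0754% of all probe sets called lower. The 4 did not move one way between strains. Cyp4a12a and Cyp4a12b were higher in KK by estimate, at 7.19 and 7.05 in females and 0.88 and 0.46 in males. Cyp4a10 and Cyp4a14 were lower in KK, at -1.04 and -1.78 in females and -3.43 and -6.11 in males. Near the level of absent transcripts were Cyp4a12a and Cyp4a12b in C57BL/6J females (4.51 to 5.63) and Cyp4a14 in KK males (5.15 to 5.44). Between strains 1 of 6 was called higher and 4 lower in males, and 3 higher and 3 lower in females. The 33 genes of the set gave 0 calls in the interaction by limma (8 at an unadjusted p under 0.05).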

How the results depend on the processing

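Over the called genes named in the text, of 1505 alternative values 1368 kept their call, 137 lost it and none changed sign. These genes were picked because they were called, and part of the values could not change sign. Within 1 sex or strain, leaving out an array of a group not compared keeps the estimate as it was. The filters, the variance models and fitting only the groups compared keep it too. Genes that were not called did change sign, with 11 of the 33 above 0 over both sexes as deposited, 15 after quantile and 14 after cyclic loess normalization. Leaving out 1 array in turn gave these ranges over the 33 genes: 0 to 3 higher and 7 to 12 lower for KK against C57BL/6J over both sexes, 0 to 1 and 3 to 6 in males, 0 to 2 and 5 to 9 in females. For males against females it gave 0 higher and 0 to 3 lower in KK, 0 and 0 to 1 in C57BL/6J, and 0 of either in the interaction. Over the 95 other pathway genes the ranges were 10 to 14 higher and 17 to 22 lower for the strains over both sexes, 3 to 5 and 3 to 10 in males, 5 to 11 and 7 to 15 in females, 2 to 6 and 2 to 3 between the sexes in KK, 2 to 5 and 3 to 7 in C57BL/6J, and 0 to 1 each way in the interaction.

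Further changes over 1.5 times followed, and the cause was not tested except where fewer arrays were fitted. For the strains in males, the 5 pathway genes that rose were 9 after quantile normalization, 8 after cyclic loess normalization, 8 with array weights, 11 with the interquartile range as a covariate and 2 with only the groups compared. With array weights the males also gave 2 genes of the set higher and 10 lower and 13 pathway genes lower; KK males against KK females gave 2 genes of the set higher, and 9 pathway genes higher and 9 lower. For C57BL/6J males against females, 1 gene of the set, Acadl, was lower after quantile normalization, after cyclic loess normalization and with the covariate, and the 4 pathway genes that were higher were 7 in these settings and with array weights and 2 with only the groups compared. In the interaction, 1 pathway gene was lower with an intensity trend and with array weights, and 1 was higher with the covariate. With only the groups compared, females gave 1 gene of the set and 7 pathway genes higher, males 0 genes of the set higher, and the KK sexes 0 genes of the set lower and 2 pathway genes higher.

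The main fit did not use the replicate numbers to pair the mice. Between groups, deviations from the group mean correlated at -0.356 to 0.477 for same-numbered arrays and at -0.506 to 0.482 for others. The lowest correlation of same-numbered arrays was 0.048 for the strains in males and 0.088 for the sexes of C57BL/6J. It was -0.029 for the strains in females and -0.190 for the sexes of KK. Of 12 arrays, 8 correlated best with an array of their own number in another group, where 1 of each group's 3 arrays has that number. What same-numbered mice share was not tested. With the replicate block, males gave 2 genes of the set and 8 pathway genes higher, and the KK sexes 1 gene of the set higher and 5 pathway genes lower. The gene of the set gained in both was Acaa1a.

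The median difference of the 33 genes between strains over both sexes was -0.09 as deposited, -0.07 after quantile and -0.04 after cyclic loess normalization, and the lower calls were 8 after either. Pdk4 and Fgf21 lie near the level of absent transcripts, which limits what their differences can show. The same holds for Abcd2 in KK males (4.98 to 5.60), Acsm2 outside KK females (5.32 to 5.94) and Cidec (5.43 to 6.17).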
